A study of Homo sapiens with 32 samples.

Results

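SETD2, NSD1, NSD2, NSD3, ASH1L, DOT1L and SETD5 encode the histone methyltransferases of H3K36 and H3K79 together with SETD5, a SET-domain protein whose own activity on H3K36 has been reported and disputed. These 7 genes were taken by name, out of 19156 RefSeq genes with an m6A peak in at least 1 list, and every peak that overlapped the gene body by 1 bp or more was assigned to them. The study mapped N6-methyladenosine (m6A) in RNA that stays on chromatin, by immunoprecipitation of fragmented RNA with an antibody to the modified base and sequencing (MeRIP-seq), in 4 cancer cell lines. The knockdown cells carried an shRNA against METTL3, the catalytic subunit of the m6A writer, and the controls were labelled WT. A control shRNA is named in the titles of the ovarian libraries and in the names of the LOVO and RKO control lists. LOVO and RKO are colon adenocarcinoma lines, and OVCAR8 and SKOV3 are ovarian cancer lines. The authors' 12 peak lists were analysed: for LOVO and RKO 1 knockdown list and 1 control list each, and for OVCAR8 and SKOV3 2 knockdown lists and 2 control lists each.

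As background, m6A is written on nascent RNA by the METTL3 and METTL14 complex, mostly at sites of the DRACH type and, in messenger RNA, mostly in long internal exons and around stop codons. SETD2 travels with elongating RNA polymerase II and trimethylates H3K36 behind it, and METTL14 is known to bind H3K36me3, which brings the writer to the transcripts of marked genes. NSD1, NSD2, NSD3 and ASH1L place the lower methylation states of H3K36, and DOT1L, which has no SET domain, methylates H3K79 in transcribed genes. The lists show where the transcripts of these genes themselves carried peaks. They hold no histone mark and no protein.

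The lists held 31060 peaks in LOVO knockdown and 36242 in LOVO control, and 34015 peaks in RKO knockdown and 37398 in RKO control. In the ovarian lines they held 15484 and 15744 peaks under the label OVCAR8 knockdown, against 28237 and 28774 in OVCAR8 control, and 26178 and 26865 peaks under the label SKOV3 knockdown, against 28918 and 29102 in SKOV3 control. No source used here gives the read depth behind the lists. Input libraries were not analysed here, so fewer methylated molecules and less RNA of a gene cannot be told apart in any value below. Nothing says whether the 2 ovarian libraries of a group were grown as separate cultures, and p-values cover the spread between lists only.

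The ovarian knockdown lists went against their line labels. Of the peaks labelled OVCAR8 knockdown, 97.1% and 96.8% overlapped a peak of the SKOV3 control lists, whereas 71.7% and 71.5% overlapped a peak of the OVCAR8 control lists. Of the peaks labelled SKOV3 knockdown, 87% and 85.7% overlapped an OVCAR8 control peak, whereas 59.7% and 59% overlapped a SKOV3 control peak. Among the marker genes, MUC16 and COL1A1 sat the same way. MUC16, an ovarian surface antigen, had 5 and 6 peaks in the lists labelled SKOV3 knockdown, against 0 and 0 in SKOV3 control, and it had 0 and 0 in the lists labelled OVCAR8 knockdown, against 5 and 5 in OVCAR8 control. COL1A1, a collagen gene, had 3 and 2 peaks in the lists labelled OVCAR8 knockdown, against 0 and 0 in OVCAR8 control, and 0 and 0 in those labelled SKOV3 knockdown, against 4 and 3 in SKOV3 control. The other markers with ovarian peaks did not separate the labels in this way. MSLN had 4 and 7 peaks under the label OVCAR8 knockdown against 5 and 4 in OVCAR8 control, and 5 and 3 under the label SKOV3 knockdown against 6 and 4 in SKOV3 control. PAX8 had 0 and 0 under the label OVCAR8 knockdown against 6 and 6 in OVCAR8 control, and 5 and 4 under the label SKOV3 knockdown against 3 and 3 in SKOV3 control, and PECAM1 had 1 and 1 in SKOV3 control and 0 in every other list. Groups were kept as labelled, and ovarian results are also given with the knockdown lists exchanged between the lines.

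The RKO knockdown list also stood apart. Only 45.1% of its peaks overlapped an RKO control peak, against 73.1% for LOVO knockdown and LOVO control. With the control lists of other lines, the RKO knockdown shares were 43% (LOVO), 41.8% (SKOV3) and 35.2% (OVCAR8). For LOVO knockdown they were 61.6% (RKO), 46.5% (SKOV3) and 47.2% (OVCAR8). The caller's background, read from the step of the score values on the assumption that the score is a fold, was 7.89 reads in RKO knockdown and 16.3 reads in RKO control, a ratio of 0.482, and it was 12.6 reads in LOVO knockdown and 10.9 reads in LOVO control, a ratio of 1.15. Of the colorectal markers CDX1, CDX2, VIL1, CDH17, LGR5, KRT20 and GPA33, 5 had peaks in LOVO knockdown and 6 in LOVO control, 0 had peaks in RKO knockdown and 1 in RKO control, and 0 had peaks in any ovarian list. Of 5 ovarian markers, 3 (PAX8, MUC16 and MSLN) had peaks in at least 1 ovarian list, and PAX8 also had 1 peak in LOVO control and 5 in RKO control. METTL3 itself had 2 peaks in LOVO knockdown and 2 in LOVO control, 3 in RKO knockdown and 2 in RKO control, 1 and 1 in the lists labelled OVCAR8 knockdown against 0 and 1 in OVCAR8 control, and 0 and 0 in those labelled SKOV3 knockdown against 1 and 3 in SKOV3 control. Peaks on METTL3 RNA do not measure the knockdown, whose depth is not known from these lists.

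All 7 genes carried peaks in all 12 lists. Together they held 73 peaks in LOVO knockdown and 73 in LOVO control, and 49 in RKO knockdown and 90 in RKO control. In the ovarian lists they held 34 and 31 peaks under the label OVCAR8 knockdown, against 51 and 49 in OVCAR8 control, and 58 and 58 under the label SKOV3 knockdown, against 66 and 63 in SKOV3 control. As a share of the list, the 7 genes had 0.144% of the peaks in RKO knockdown, the lowest of the 12 lists, and 0.241% in RKO control, the highest. Averaged over the 6 control lists and divided by gene length, peak density was 12.6 per 100 kb in DOT1L, 11.3 in NSD2, 8.07 in SETD5, 7.55 in NSD3, 5.84 in SETD2, 5.56 in ASH1L and 4.65 in NSD1. The median over 12255 protein-coding genes with a peak was 4.12 per 100 kb, and between 53.6% (NSD1) and 79.3% (DOT1L) of those genes lay below the gene. Neighbours in this order did not separate beyond the spread over the control lists: DOT1L alone ranged between 5 and 14 peaks there, and NSD2 between 3 and 18.

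**Figure D1:**
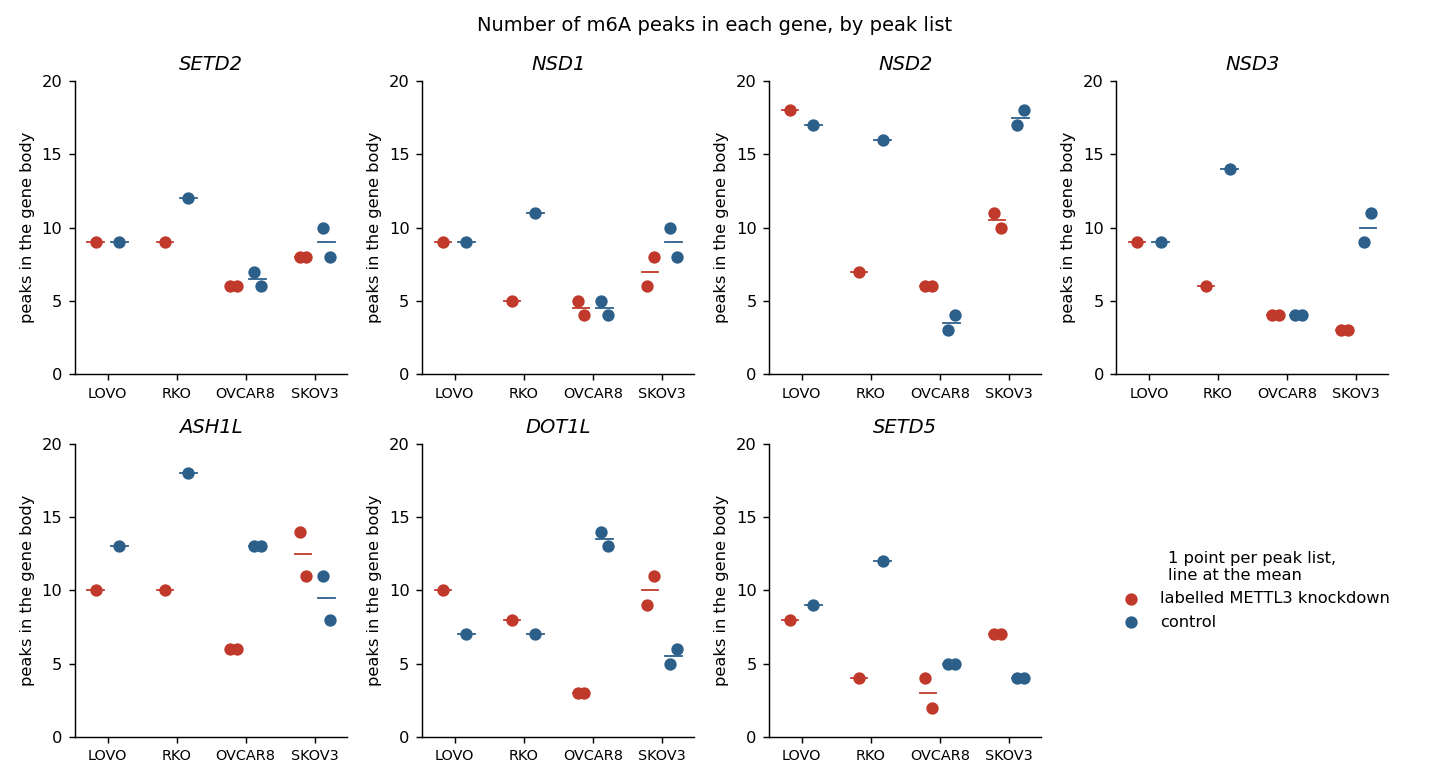
Number of m6A peaks overlapping the body of each of the 7 genes (vertical axis, peaks) in each peak list, by cell line as labelled, with METTL3 knockdown (red) left of control (blue). Each point is 1 list and the short line is the group's mean. RKO knockdown sat below RKO control in every gene but DOT1L, where 2 of its 8 peaks lay on the opposite strand. DOT1L was low in the lists labelled OVCAR8 knockdown (3 and 3) and high in OVCAR8 control (14 and 13).

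Knockdown and control lists were compared gene by gene with an exact two-sided permutation test over lists, stratified by line, on the knockdown minus control peak number averaged over the 4 lines. The design allows 144 arrangements and a smallest p of 0.0139. At that floor a single gene could not pass adjustment over 19156 genes, however large its difference. Many more genes than the 302 given below would have to reach the smallest p together. Counts of 0 after adjustment therefore do not show that peak numbers were unchanged. None of the 7 genes passed at an adjusted p under 0.05, and 0 of all 19156 genes did (0%). At an unadjusted p under 0.05, 0 of the 7 and 302 of all genes (1.58%) were called. With the ovarian knockdown lists exchanged, 2 of the 7 (NSD3 and ASH1L) and 410 of all genes (2.14%) were below 0.05, again with 0 after adjustment. As labelled, all 7 differences were below 0, with a median of -2 peaks. Over all genes the median was -0.25, with 10968 genes below 0, 5933 above 0 and 2255 at 0. Long genes with many peaks can move by more peaks than others. On the scale of log2 of peaks plus 1 over the list's total, the differences of SETD2 (0.18), NSD1 (0.01), NSD2 (0.08) and DOT1L (0.22) turned above 0, where the median of all genes was 0.21. Dividing by list totals, which were lower in knockdown in every line, adds the same positive amount to every gene. A value above 0 on this scale thus does not mean more peaks in knockdown. Without the RKO lists, which stood apart, the differences were smaller in all of the 7 but DOT1L: -0.50 in SETD2, -0.67 in NSD1, -1.17 in NSD2, -2.33 in NSD3, -2.33 in ASH1L, -1 in DOT1L and 0 in SETD5. With the 15484 strongest peaks of each list, SETD2 and NSD1 were both at -0.12.

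Line by line, the groups of lists were set side by side without a test, since 2 lists against 2 cannot give an exact p under 0.333. In LOVO, 2 of the 7 genes had more peaks in knockdown (25.8% of all genes with a peak there did) and 3 had the same number. ASH1L and SETD5 had fewer (43.1% of all genes). In RKO, 6 of the 7 had fewer peaks in knockdown (46% of all genes) and DOT1L had more (36.5% of all genes). On its own strand, though, DOT1L had 6 peaks in RKO knockdown and 7 in RKO control. In OVCAR8 as labelled, ASH1L, DOT1L and SETD5 had fewer peaks in both knockdown lists than in both control lists (46.3% of all genes) and NSD2 had more (15.3% of all genes). In SKOV3 as labelled, NSD2 and NSD3 had fewer (31.6% of all genes) and DOT1L and SETD5 had more (26.3% of all genes). These shares lie near those of all genes, except in RKO, where 6 of 7 compares with 46% and where the knockdown list stood apart over all its peaks.

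Peaks of the 12 lists were merged into regions on each strand. The 7 genes held 122 such regions, 14 of them on the strand opposite to the gene. A total of 18 regions (14.8%) had a peak in all 12 lists, and 26 (21.3%) in 1 list only. These regions were merged from peaks touching the gene bodies only, and those of the whole series from all peaks. A region at a gene's edge can thus miss lists. The ASH1L region chr1:155563201-155563556, on the opposite strand, counts for LOVO knockdown only, though a LOVO control peak outside the gene overlapped it. Over all genes and the space between them, 5.36% of 87085 merged regions had a peak in every list and 37.8% in 1 list. Each of the 7 genes had between 2 and 4 regions present in every list. Without the RKO lists 20 regions were present in all remaining lists, without the LOVO lists 19, and in the colorectal lists plus the ovarian control lists, where the mismatched knockdown lists play no part, 18. Strength is given as a peak's percentile among all peaks of its own list, ranked by -log10 p in the ovarian lists and by the score in LOVO and RKO, so it is not the same measure in all lines. The 18 regions had a median strength of 92.4, and the 4666 regions of the whole series that are present in every list had 81.2. Regions of the 7 genes seen in 1 list had a median of 27.9, and those of the whole series 29.7. These medians are descriptions, with no test.

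**Figure D2:**
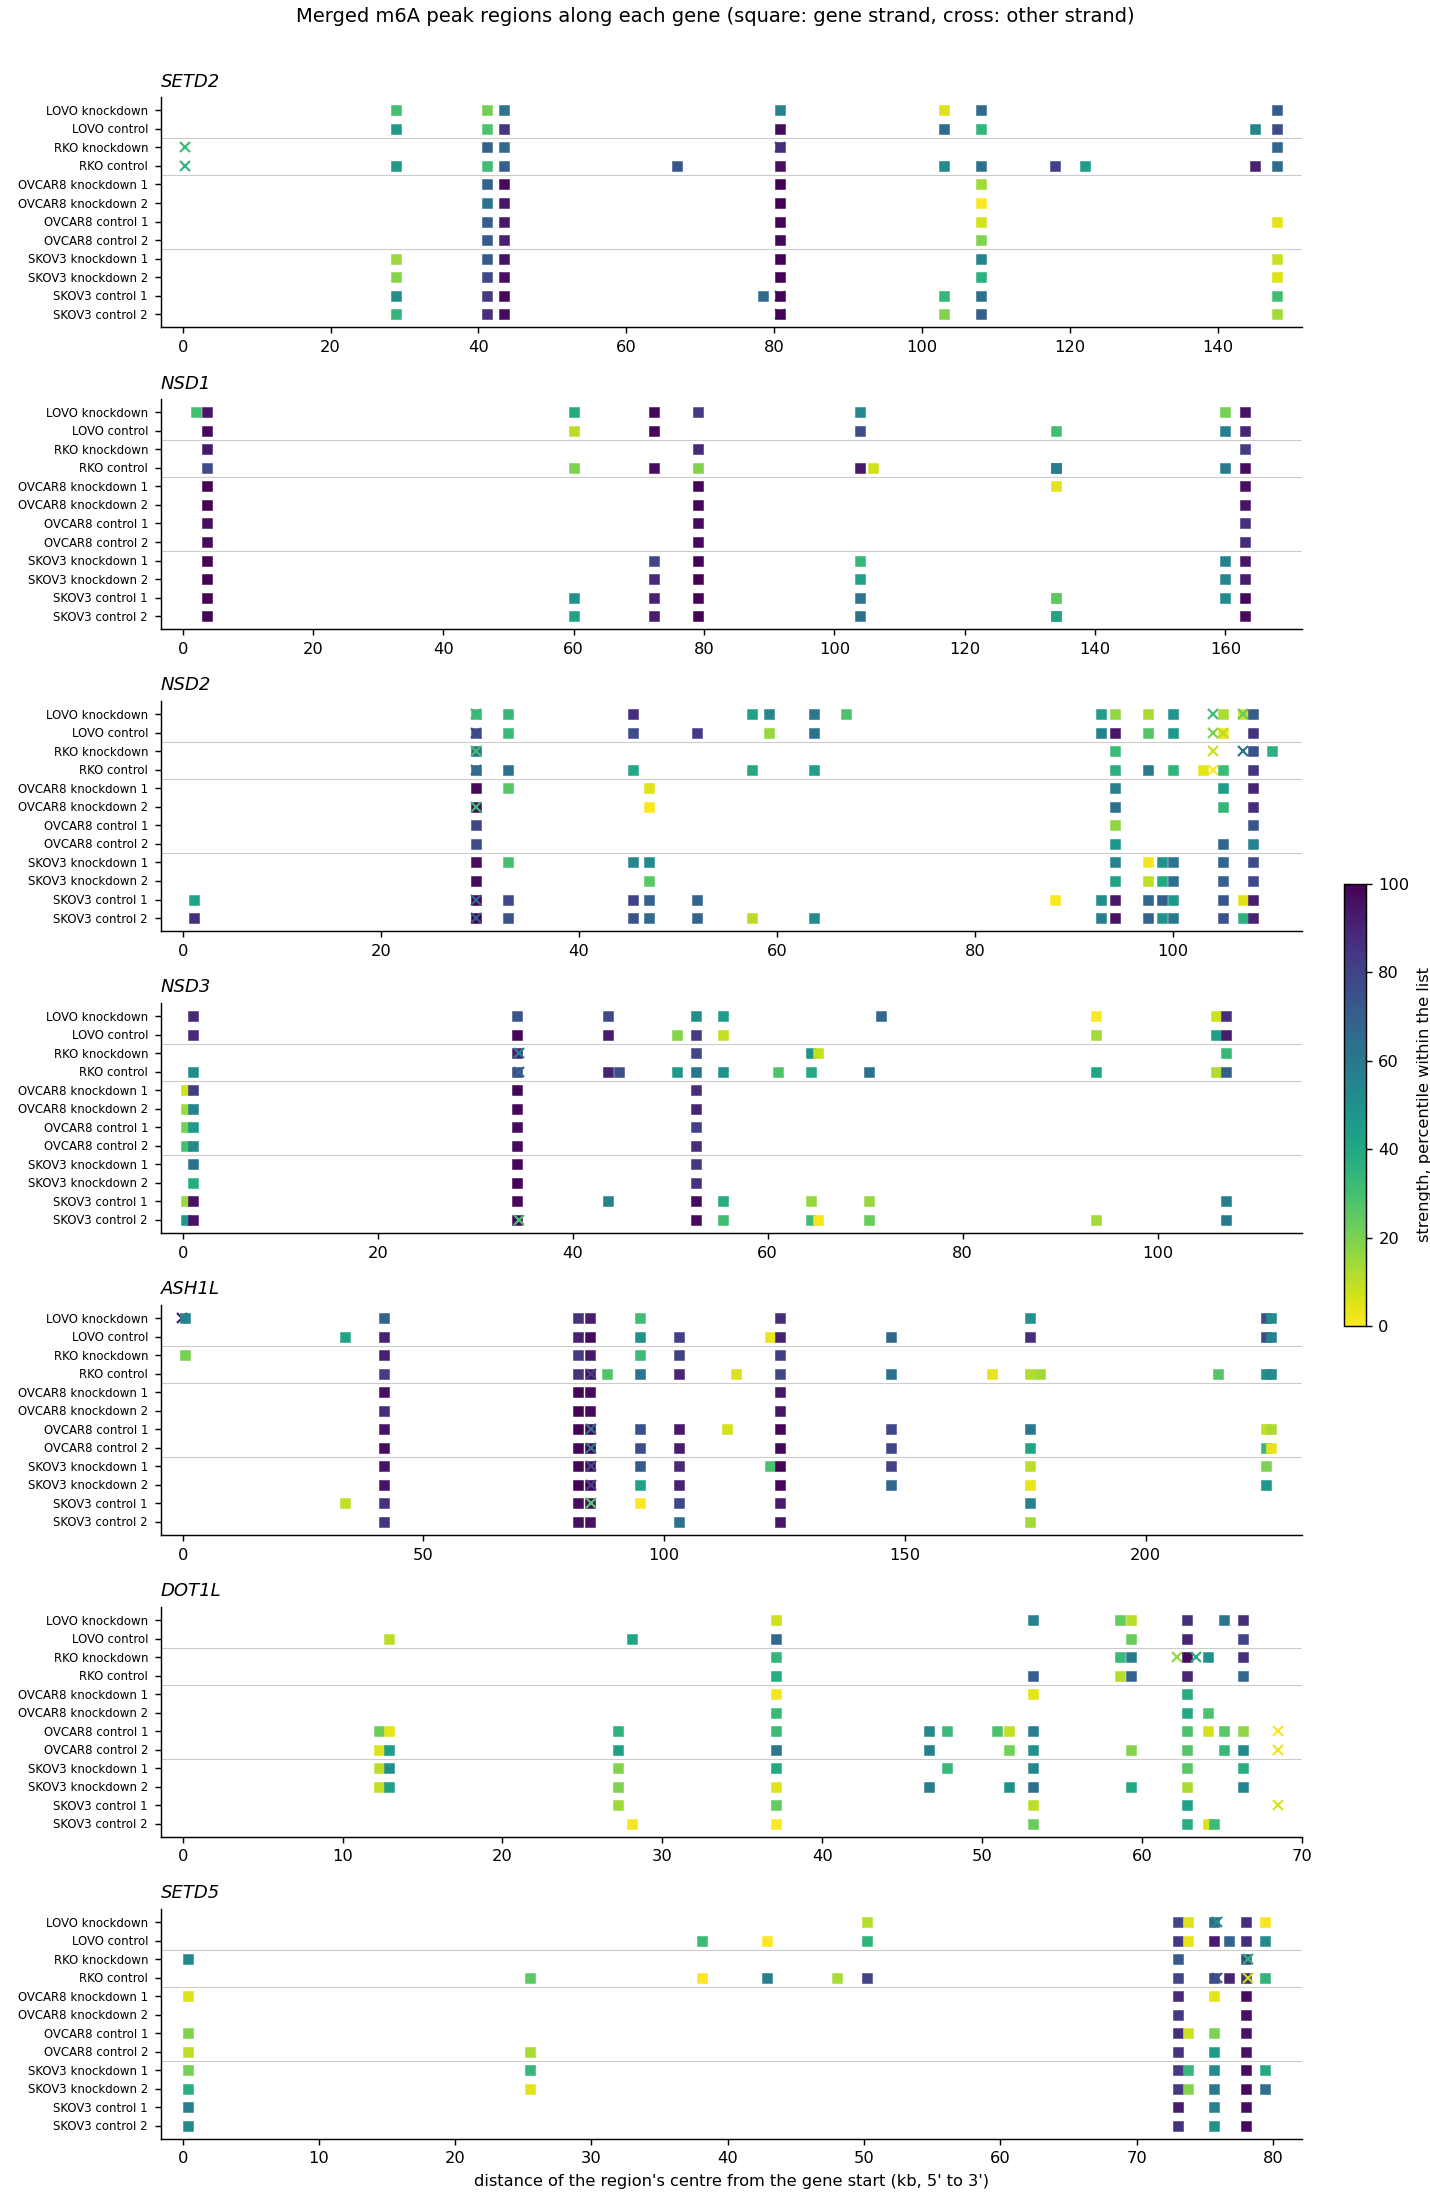
Merged m6A peak regions of the 7 genes, 1 panel per gene and 1 row per list, with METTL3 knockdown above control for each line. The horizontal axis is the distance of the region's centre from the gene start in kb, in the direction of transcription, and colour gives strength as a percentile within the list (0 to 100). Squares lie on the gene's strand and crosses on the other strand. Columns filled in all 12 rows are the 18 regions present in every list.

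SETD2, the enzyme that trimethylates H3K36, spans chr3:47016436-47164840 (hg38) on the minus strand. It had 9 peaks in LOVO knockdown and 9 in LOVO control, and 9 in RKO knockdown and 12 in RKO control. It had 6 and 6 peaks in the lists labelled OVCAR8 knockdown against 7 and 6 in OVCAR8 control, and 8 and 8 in those labelled SKOV3 knockdown against 10 and 8 in SKOV3 control. Its peak number thus stayed between 6 and 12, and the groups met or overlapped in every line but RKO. The mean difference was -1.12 peaks (exact permutation p = 0.25, adjusted p = 1). SETD2 had 3 stretches that were marked in every list. The strongest was a region of about 80.7 kb from the gene start, chr3:47083788-47084418, with a strength of 54.8 in LOVO knockdown and 97.2 in LOVO control, and 86.6 in RKO knockdown and 96.4 in RKO control. It stood at 99.7 and 99.7 in the lists labelled OVCAR8 knockdown against 99.1 and 98.8 in OVCAR8 control, and at 99.7 and 99.7 in those labelled SKOV3 knockdown against 99.5 and 99.5 in SKOV3 control. In the ovarian lists this SETD2 region was therefore among the strongest 2% of peaks whatever the label, and LOVO knockdown was the list where it stood lowest. The 2 others lie next to each other at chr3:47120207-47122680 and chr3:47122897-47124597, with median strengths of 93.8 and 69.5. A weaker region at chr3:47056890-47057585 was found in 11 lists and missed only in RKO knockdown.

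NSD1, which mono- and dimethylates H3K36 and is mutated in Sotos syndrome, spans chr5:177131798-177300213 on the plus strand. It had 9 peaks in LOVO knockdown and 9 in LOVO control, and 5 in RKO knockdown and 11 in RKO control. It had 5 and 4 peaks in the lists labelled OVCAR8 knockdown against 5 and 4 in OVCAR8 control, and 6 and 8 in those labelled SKOV3 knockdown against 10 and 8 in SKOV3 control. RKO was the only line in which its groups did not meet or overlap, and the mean difference was -2 peaks (exact permutation p = 0.278, adjusted p = 1). The regions present in every list sit at opposite ends of NSD1. The region near the start, chr5:177134949-177136046, had strengths between 77.4 and 99.8 over the 12 lists, and the region near the end, chr5:177293770-177296287, between 82.4 and 98.3. Between them a region of 2776 bp, chr5:177209518-177212293, was found in 11 lists. It stood at 83.1 in LOVO knockdown and had no peak in LOVO control, and at 89 in RKO knockdown and 18.8 in RKO control. In the ovarian lists it stood between 97.9 and 99.8, so this long stretch ranked high in every ovarian list and varied in the colorectal ones. A neighbouring region at chr5:177203995-177204264 was among the strongest NSD1 regions of LOVO, at 98.1 in knockdown and 99 in control, and it had no peak in RKO knockdown but stood at 96.8 in RKO control. It was found in all 4 lists of SKOV3 as labelled (79 and 88.4 in knockdown, 90.8 and 92.5 in control) and in 0 of the 4 of OVCAR8, one place where the ovarian knockdown lists followed their labels.

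NSD2, an enzyme that dimethylates H3K36 and is overexpressed through a translocation in multiple myeloma, spans chr4:1871393-1982192 on the plus strand. It had 18 peaks in LOVO knockdown and 17 in LOVO control, and 7 in RKO knockdown and 16 in RKO control. It had 6 and 6 peaks in the lists labelled OVCAR8 knockdown against 3 and 4 in OVCAR8 control, and 11 and 10 in those labelled SKOV3 knockdown against 17 and 18 in SKOV3 control. The ovarian groups did not overlap. LOVO and RKO have 1 list per group, where any unequal counts differ without overlap. The signs differed: knockdown was lower in RKO and SKOV3 and higher in OVCAR8 and, by 1 peak, in LOVO. The mean difference was -3.12 peaks (exact permutation p = 0.208, adjusted p = 1). With the ovarian knockdown lists exchanged, the pairs were 6 and 6 in the lists labelled OVCAR8 knockdown against 17 and 18 in SKOV3 control, and 11 and 10 in the lists labelled SKOV3 knockdown against 3 and 4 in OVCAR8 control. The signs then still differed between the ovarian pairs. SKOV3 control was rich in NSD2 regions that OVCAR8 control lacked, 12 of 16. Of the 9 NSD2 regions in both lists labelled SKOV3 knockdown, 5 had no OVCAR8 control peak and 0 had no SKOV3 control peak, so at NSD2 these lists were nearer to their own label, unlike their peaks as a whole. NSD2 had 3 regions in every list: chr4:1900518-1901475 (median strength 87.8), chr4:1964632-1966266 (51.2) and chr4:1978525-1979578 (81.7). The middle one varied most, between 16.6 in LOVO knockdown and 95.5 in a SKOV3 control list, and LOVO control stood at 94.3.

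NSD3, the remaining NSD family member, spans chr8:38269704-38382271, on the minus strand by the strand of most of its peaks. It had 9 peaks in LOVO knockdown and 9 in LOVO control, and 6 in RKO knockdown and 14 in RKO control. It had 4 and 4 peaks in the lists labelled OVCAR8 knockdown against 4 and 4 in OVCAR8 control, and 3 and 3 in those labelled SKOV3 knockdown against 9 and 11 in SKOV3 control. NSD3 was thus at the same level in both groups of LOVO and OVCAR8. It was lower in the single knockdown list of RKO and, without overlap, in those of SKOV3. The mean difference was -3.75 peaks (exact permutation p = 0.167, adjusted p = 1). With the lists exchanged, 4 and 4 peaks labelled OVCAR8 knockdown stood against 9 and 11 in SKOV3 control, and 3 and 3 labelled SKOV3 knockdown against 4 and 4 in OVCAR8 control, so either knockdown lay below SKOV3 control. The exact permutation p was then 0.0278, and the adjusted p stayed at 1. The regions in every list were chr8:38347524-38348330, with strengths between 74.2 and 99.5, and chr8:38329416-38329985, with strengths between 50.3 and 97.6. A region near the gene start, chr8:38380974-38381465, was in 11 lists and missing in RKO knockdown. The other end of NSD3 differed between control lines: the region chr8:38275351-38275960 was found in the knockdown and control lists of LOVO (86.2 and 92.4) and RKO (32.5 and 69.6) and in both SKOV3 control lists (57.7 and 59.6), and in none of the other 6 ovarian lists.

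ASH1L, a Trithorax-group enzyme that dimethylates H3K36 and the longest of the 7 genes, spans chr1:155335268-155563202 on the minus strand. It had 10 peaks in LOVO knockdown and 13 in LOVO control, and 10 in RKO knockdown and 18 in RKO control. Of the 10 in LOVO knockdown, 9 lay on the gene's strand and 1 on the opposite strand, at the gene's edge. It had 6 and 6 peaks in the lists labelled OVCAR8 knockdown against 13 and 13 in OVCAR8 control, and 14 and 11 in those labelled SKOV3 knockdown against 11 and 8 in SKOV3 control. Knockdown lay below control in LOVO and RKO, with 1 list per group, and without overlap in OVCAR8. In SKOV3 the groups met at 11 with the higher mean in knockdown. The mean difference was -3.75 peaks (exact permutation p = 0.111, adjusted p = 1), the smallest p of the 7 genes. With the lists exchanged, 6 and 6 peaks labelled OVCAR8 knockdown stood below 11 and 8 in SKOV3 control, and 14 and 11 labelled SKOV3 knockdown overlapped 13 and 13 in OVCAR8 control. The exact permutation p was 0.0417 for ASH1L in that setting, with an adjusted p of 1. ASH1L had 4 regions in every list, more than any other of the 7: chr1:155438362-155439148, chr1:155477829-155479381, chr1:155479730-155482580 and chr1:155521105-155521686, with median strengths of 94.5, 97.6, 97.9 and 91.1. The middle pair of them adjoin, and the lowest value of that pair in any list was 83.1. Beyond them, the region chr1:155459829-155460021 was missing in LOVO knockdown but at 81.2 in LOVO control, at 80.7 in RKO knockdown and 89.7 in RKO control, and missing in both lists labelled OVCAR8 knockdown but at 93.7 and 92.2 in OVCAR8 control. It was present in the 4 lists of SKOV3, at 88.7 and 90.9 in knockdown and 78.6 and 63.9 in control. That made it the strongest ASH1L region lost in OVCAR8 as labelled, and it was also absent from those lists when they were set against SKOV3 control.

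DOT1L, the H3K79 methyltransferase and a target in MLL-rearranged leukaemia, spans chr19:2163933-2232578, on the plus strand by the strand of most of its peaks. It had 10 peaks in LOVO knockdown and 7 in LOVO control, and 8 in RKO knockdown and 7 in RKO control. It had 3 and 3 peaks in the lists labelled OVCAR8 knockdown against 14 and 13 in OVCAR8 control, and 9 and 11 in those labelled SKOV3 knockdown against 5 and 6 in SKOV3 control. DOT1L was thus higher in knockdown in LOVO, RKO and SKOV3 and lower in OVCAR8, and its ovarian groups did not overlap. In RKO, 2 of the 8 knockdown peaks lay on the strand opposite to DOT1L. On the gene's own strand, RKO knockdown had 6 peaks against 7 in RKO control. The mean difference was -0.50 peaks (exact permutation p = 0.861, adjusted p = 1). The 2 ovarian differences lay 15 peaks apart (-15, OVCAR8 minus SKOV3, exact permutation p = 0.0556, the smallest that the 36 arrangements allow). Those arrangements move lists between the 2 lines within knockdown and within control. Their p thus does not isolate a difference in the effect of knockdown. The same smallest p was reached by 4 of the 7 genes, namely DOT1L, NSD3, ASH1L and SETD5, and by 32% of 13348 genes with an ovarian peak. With the lists exchanged, 3 and 3 peaks labelled OVCAR8 knockdown stood against 5 and 6 in SKOV3 control, and 9 and 11 labelled SKOV3 knockdown against 14 and 13 in OVCAR8 control, so knockdown was then lower in both. At DOT1L the lists followed the exchanged labels: of 8 regions in both lists labelled SKOV3 knockdown, 4 had no SKOV3 control peak and 0 had no OVCAR8 control peak. DOT1L was also the gene with the weakest shared regions. The region chr19:2200628-2201354 was in every list at a median strength of 32. The region chr19:2226087-2227464 stood at 86 in LOVO knockdown and 89.9 in LOVO control, 97 in RKO knockdown and 89.8 in RKO control, and between 12.6 and 42.7 in the 8 ovarian lists. Colorectal and ovarian lists are ranked by different measures, so tissue and measure cannot be told apart here.

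SETD5, a SET-domain protein found with the NCOR1 and HDAC3 corepressor and with the PAF1 complex, spans chr3:9397615-9478154 on the plus strand. It had 8 peaks in LOVO knockdown and 9 in LOVO control, and 4 in RKO knockdown and 12 in RKO control. It had 4 and 2 peaks in the lists labelled OVCAR8 knockdown against 5 and 5 in OVCAR8 control, and 7 and 7 in those labelled SKOV3 knockdown against 4 and 4 in SKOV3 control. Knockdown was lower in LOVO (8 against 9 in single lists), RKO and OVCAR8 and higher in SKOV3. The ovarian groups again did not overlap, and the mean difference was -2 peaks (exact permutation p = 0.625, adjusted p = 1). With the lists exchanged, 4 and 2 peaks labelled OVCAR8 knockdown met 4 and 4 in SKOV3 control, and 7 and 7 labelled SKOV3 knockdown lay above 5 and 5 in OVCAR8 control. SETD5 peaks gathered at its end. Both regions found in every list, chr3:9470369-9470954 and chr3:9474751-9476566, lay 73 and 78 kb from the start of a gene of 80.5 kb, with median strengths of 83.9 and 95.8. Between them the region chr3:9473107-9473487 was in 10 lists and missing in RKO knockdown and 1 list labelled OVCAR8 knockdown. A region at the start, chr3:9397629-9398376, was in 8 lists, among them both lists each of OVCAR8 control, SKOV3 knockdown and SKOV3 control, and in no LOVO list.

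Peaks at transcript starts were looked up in RefSeq promoter windows of GRCh38.p14, which run over 300 bases, 250 before and 50 after each annotated start. The table held windows of 5 of the 7 genes (SETD2, NSD1, NSD2, ASH1L and SETD5), and peaks reached into windows of 3 genes. The windows below, 1 for each of these genes, are shown because promoter sequence in them lay under a peak, and bases under a peak are in capitals. The SETD2 window is chr3:47164064-47164363 on the minus strand, and its peaks, in RKO knockdown (52 bases, strength 31.6) and RKO control (56 bases, strength 34.6), were on the plus strand, opposite to SETD2. The NSD1 window is chr5:177133886-177134185 on the plus strand, with a single peak in LOVO knockdown (102 bases, strength 29.7). The same peak covered 69 bases of another NSD1 window, chr5:177133523-177133822, which is not printed. The SETD5 window is chr3:9397365-9397664 on the plus strand, with a single peak in RKO knockdown (36 bases, strength 53). All are given from 5′ to 3′ along the gene.
SETD2: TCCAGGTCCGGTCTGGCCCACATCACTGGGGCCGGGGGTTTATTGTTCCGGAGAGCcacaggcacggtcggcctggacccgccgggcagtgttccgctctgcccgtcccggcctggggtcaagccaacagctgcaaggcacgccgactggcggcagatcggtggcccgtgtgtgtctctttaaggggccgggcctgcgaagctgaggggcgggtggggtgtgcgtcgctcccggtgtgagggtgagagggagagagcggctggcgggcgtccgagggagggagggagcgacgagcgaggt
NSD1: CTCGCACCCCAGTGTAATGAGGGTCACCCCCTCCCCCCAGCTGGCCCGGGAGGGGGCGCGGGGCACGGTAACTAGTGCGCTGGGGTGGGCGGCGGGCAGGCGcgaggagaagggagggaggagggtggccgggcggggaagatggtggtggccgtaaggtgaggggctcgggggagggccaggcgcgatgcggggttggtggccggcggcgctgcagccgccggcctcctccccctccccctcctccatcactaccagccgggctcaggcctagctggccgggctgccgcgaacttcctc
SETD5: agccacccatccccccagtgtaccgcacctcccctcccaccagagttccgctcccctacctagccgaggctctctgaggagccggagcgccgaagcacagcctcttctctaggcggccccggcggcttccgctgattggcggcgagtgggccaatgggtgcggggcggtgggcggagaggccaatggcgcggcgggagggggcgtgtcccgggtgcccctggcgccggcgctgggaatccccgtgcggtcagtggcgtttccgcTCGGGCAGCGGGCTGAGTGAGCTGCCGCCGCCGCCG
The letters GGAC, the core of the most common m6A motif, were found 1 time in the sense direction and 3 times in the other direction in the SETD2 window, 0 and 0 times in this NSD1 window, and 0 and 1 times in the SETD5 window. These counts cover whole windows, not the bases under a peak. The sense GGAC of SETD2 and that of SETD5 lay outside the capitals, and a SETD2 site in the other direction lay within them. Of all 35116 promoter windows, 66.3% held GGAC in the sense direction and 87.4% on either strand. The SETD2 and NSD1 peaks were the only ones of those genes to touch a start window.

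Control regions, the same-strand peaks present in every control list of a line, were called lost if no knockdown peak overlapped them, and knockdown regions were called gained if no control peak did. In LOVO, 18 of 73 control regions of the 7 genes were lost (24.7%, exact binomial 95% interval 15.3% to 36.1%), and 37.8% of all control regions were. Gained regions were 14 of 73 (19.2%), and 26.9% of all. ASH1L lost 5 of 13 and SETD5 3 of 9, and DOT1L gained 5 of 10. In RKO, 55 of 90 were lost (61.1%, 50.3% to 71.2%), against 60.1% of all control regions, and 9 of 49 were gained (18.4%), against 54.9% of all. The RKO losses took in 8 of 11 NSD1, 9 of 12 SETD5, 11 of 16 NSD2, 9 of 14 NSD3, 10 of 18 ASH1L and 7 of 12 SETD2 regions, and 1 of 7 DOT1L regions. The intervals cover counting error only, and regions of a gene share a transcript.

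In OVCAR8 as labelled, 15 of 44 control regions of the 7 genes were lost (34.1%, 20.5% to 49.9%), and 57.8% of all were. Of these, 8 of 11 lay in DOT1L and 7 of 12 in ASH1L, and SETD2, NSD1, NSD2, NSD3 and SETD5 lost 0. Gained regions were 1 of 29 (3.45%, in NSD2), and 25.9% of all. In SKOV3 as labelled, 15 of 55 were lost (27.3%, 16.1% to 41%), and 44.4% of all were: 5 of 8 in NSD3, 5 of 16 in NSD2, 3 of 8 in NSD1, 2 of 8 in SETD2 and 0 in ASH1L, DOT1L and SETD5. Gained were 9 of 52 (17.3%), and 36.5% of all, with 4 of 8 in DOT1L.

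With the knockdown lists exchanged, the lists labelled OVCAR8 knockdown lacked 23 of the 55 SKOV3 control regions (41.8%), and 44.3% of all, and added 0 of 29 (0%, upper bound 11.9%), and 1.94% of all. The lists labelled SKOV3 knockdown lacked 4 of the 44 OVCAR8 control regions (9.09%), and 14.6% of all, and added 10 of 52 (19.2%), and 8.81% of all. Of the SKOV3 control regions, the lists labelled OVCAR8 knockdown lacked 9 of 16 in NSD2, 4 of 8 each in SETD2, NSD1 and NSD3, 2 of 8 in ASH1L and 0 in DOT1L and SETD5. Of the OVCAR8 control regions, the lists labelled SKOV3 knockdown lacked 2 of 11 in DOT1L, 1 of 12 in ASH1L, 1 of 4 in NSD3 and 0 in the other genes. Every member peak labelled OVCAR8 knockdown, 34 of 34 and 31 of 31, overlapped a SKOV3 control peak, while 31 of 34 and 29 of 31 overlapped an OVCAR8 control peak. For the lists labelled SKOV3 knockdown the member peaks did not separate the labels: 45 and 47 of 58 overlapped an OVCAR8 control peak, and 46 and 46 of 58 a SKOV3 control peak. Against OVCAR8 control, the losses of DOT1L and ASH1L were thus smaller with the lists exchanged. Against SKOV3 control, those of NSD2, SETD2, NSD1 and ASH1L were larger and that of NSD3 was about the same.

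Regions lost in knockdown were on average weaker in the control lists than regions kept. Lost regions of the 7 genes had a median strength in the control lists of 31.4 in LOVO, 45.8 in RKO, 34.5 in OVCAR8 and 34.9 in SKOV3, and kept regions had medians of 74.8, 67.4, 78.5 and 76.8 in the same order of lines. Control regions of each line were split by strength percentile into 3 classes. In the strongest class the 7 genes lost 5 of 33 in LOVO (13.7% of all in that class), 13 of 33 in RKO (39.6% of all), 3 of 20 in OVCAR8 (36.4% of all) and 2 of 27 in SKOV3 (27.8% of all). In the middle class they lost 3 of 17 in LOVO (40.8% of all), 24 of 32 in RKO (64.6% of all), 5 of 11 in OVCAR8 (65.7% of all) and 6 of 16 in SKOV3 (49.1% of all). In the weakest class they lost 10 of 23 in LOVO (58.9% of all), 18 of 25 in RKO (76% of all), 7 of 13 in OVCAR8 (76.9% of all) and 7 of 12 in SKOV3 (60.5% of all). In LOVO and RKO the shares in the strongest class were close to those of all regions. With the lists exchanged, the lists labelled SKOV3 knockdown lacked 0 of 20 of the strongest OVCAR8 control regions (5.08% of all), and those labelled OVCAR8 knockdown lacked 5 of 27 of the strongest (12.4% of all) and 12 of 16 of the middle SKOV3 control regions (50.9% of all). Whether the weaker regions lost methylation or fell below the caller's threshold was not tested.

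**Figure D3:**
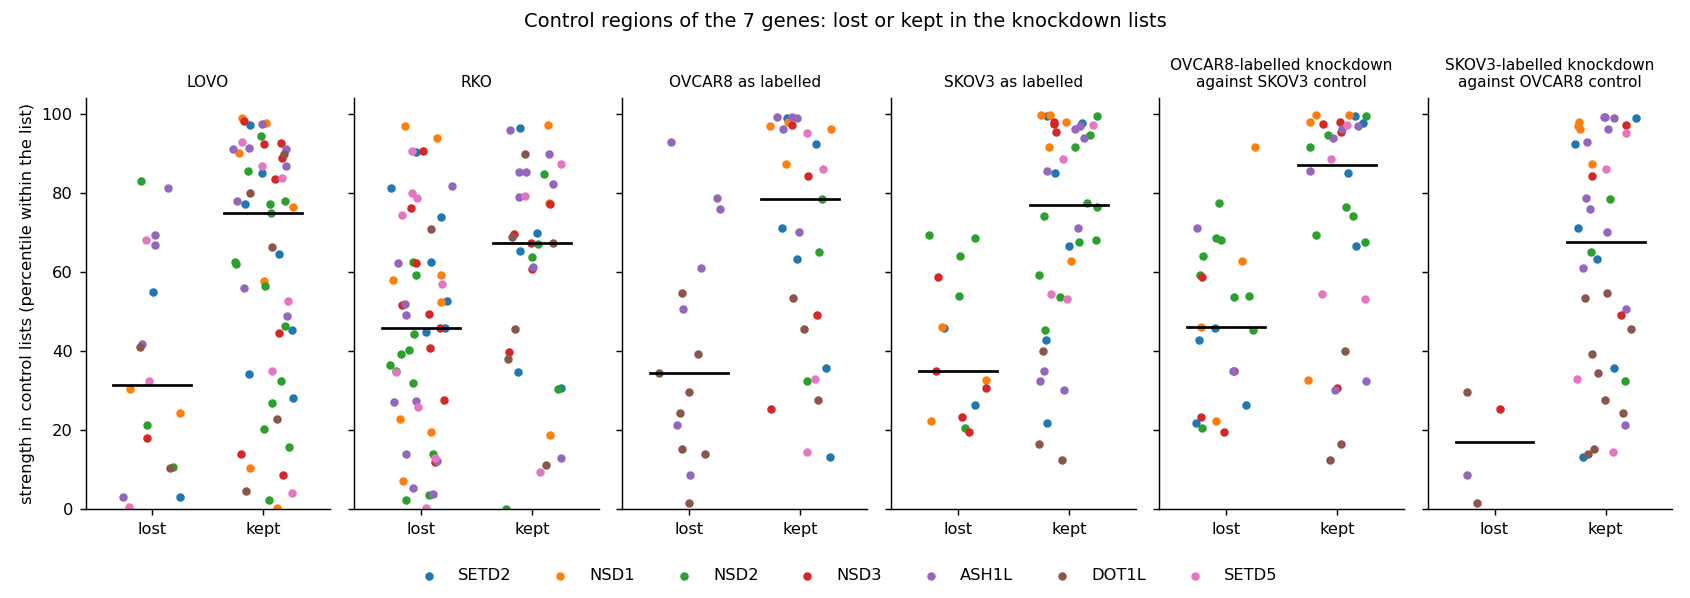
Strength of each control region of the 7 genes (vertical axis, percentile within the control list, averaged over 2 lists in the ovarian lines), split by whether the knockdown lists lost or kept it. The first 4 panels follow the labels and the last 2 exchange the ovarian knockdown lists; each point is 1 region, coloured by gene, and the black line is the median. Lost regions sit lower in every panel, with medians between 16.9 and 46 for lost regions and between 67.4 and 87 for kept regions.

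Control lists of different lines also differed in these genes. Of the 55 control regions that SKOV3 had in the 7 genes, 24 (43.6%) had no peak in OVCAR8 control, and 48.2% of all did not. They lay in NSD2 (12 of 16), NSD1 (5 of 8), NSD3 (4 of 8) and SETD2 (3 of 8). Of the 44 OVCAR8 control regions, 9 (20.5%) had no peak in SKOV3 control, 6 of 11 in DOT1L and 3 of 12 in ASH1L, and 45.8% of all did not. NSD1, NSD2, NSD3 and SETD2 were thus the richer ones in SKOV3 control, and DOT1L and ASH1L in OVCAR8 control. SETD5 and its 4 regions in each line did not differ in this way. RKO control had 29 of 90 regions (32.2%) with no LOVO control peak, and 40.3% of all had none. LOVO control had 9 of 73 (12.3%) with no RKO control peak, and 35.9% of all had none.

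Genes whose products read, erase or work with these marks were described with the same test. Of 16 genes for readers of methylated H3K36 and H3K79, all had a peak in some list and 0 passed the test. Their differences were below 0 in 13, above 0 in 1 and at 0 in 2, with a median of -0.50 peaks. The 3 with most peaks were BRPF1 (-0.75), a scaffold of histone acetyltransferases, MSH6 (0.00), a mismatch repair protein with a PWWP domain, and DNMT3A (-0.75), a DNA methyltransferase guided by H3K36me2. METTL14, the reader that ties H3K36me3 to m6A, had few peaks: 1 in LOVO knockdown and 2 in LOVO control, 1 in RKO knockdown and 4 in RKO control, 0 in the 4 lists labelled OVCAR8, 0 and 0 in those labelled SKOV3 knockdown and 1 and 1 in SKOV3 control. Its difference was -1.25 peaks (exact permutation p = 0.0833, adjusted p = 1).

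Among 6 genes for H3K36 demethylases, 0 passed, 5 were below 0 and 1 above 0, with a median of -0.56. KDM4B had the most peaks, 13 in RKO knockdown against 4 in RKO control, and between 6 and 10 in every other list, and its difference was 2 peaks (exact permutation p = 0.833, adjusted p = 1). KDM2B (-0.12) and KDM2A (-0.88) followed. Of 15 genes for partners of the 7 enzymes, 14 had a peak and 0 passed, with 11 below 0, 2 above 0 and 1 at 0, and a median of -0.69. NCOR1, the corepressor that binds SETD5, had the most peaks and the largest difference of that group, with 11 in LOVO knockdown and 15 in LOVO control, and 12 in RKO knockdown and 17 in RKO control. It had 6 and 6 peaks in the lists labelled OVCAR8 knockdown against 8 and 11 in OVCAR8 control, and 9 and 7 in those labelled SKOV3 knockdown against 8 and 9 in SKOV3 control. NCOR1 was below control in 3 lines and overlapped it in SKOV3, and the difference of -3.25 peaks had an exact permutation p of 0.0417 that did not hold after adjustment (adjusted p = 1). AFF1 (-1), of the super elongation complex, came next. Of 4 other enzymes reported on H3K36, 3 had peaks (SETMAR, SETD3 and SMYD2) and 0 passed, with differences of -0.12, 0.12 and -0.88. Like the 7 genes, these groups were mostly below 0, as were 10968 of all 19156 genes.

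For each of the 7 genes, the gene with the most similar peak number over the 12 lists was taken among 1272 others with a mean of at least 5 peaks, by Pearson's r of log2 of peaks plus 1. These were MTR for SETD2 (r = 0.943), DDX10 for NSD1 (0.94), BAZ1B for NSD2 (0.949), MAGI1 for NSD3 (0.941), CCNY for ASH1L (0.939), LINC01000 for DOT1L (0.965) and ATRX for SETD5 (0.976). The 12 points share each list's depth and threshold and fall into lines, and the best of 1272 is high by selection, so r is only a description. LINC01000 showed the DOT1L pattern, with 3 and 3 peaks labelled OVCAR8 knockdown against 9 and 9 in OVCAR8 control, and 8 and 8 labelled SKOV3 knockdown against 5 and 5 in SKOV3 control.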

How the data were processed

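Peak lists were taken as the authors deposited them. Per the submitters' processing notes, the tools were MACS2 2.2.7.1, HISAT2 2.1.0, Bowtie2 2.4.2 and Trim Galore 0.6.6 on hg38, and the notes name no step for any of them. Stranded libraries were made from RNA immunoprecipitated with an m6A kit, spike-ins included, per the labels' protocols. Spike-in values were not used here. For OVCAR8 and SKOV3 the authors deposited 1 list per MeRIP library, with a score, a fold enrichment (a linear ratio) and −log10 p-values and q-values per peak, and the lowest −log10 q was 2.00. Each LOVO and RKO group has 1 deposited list, whose score column no header explains. In those lists the lowest score was above 3, the peak names cite replicate 1, and no source used here says how replicate 2 entered, so each counts as a single value without SD. These numbers, all from the authors, served only to rank peaks within a list and to read the caller's background. Of the columns of values, 0 had no sample.

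Peaks on chromosomes 1 to 22 and X were assigned to RefSeq gene bodies of GRCh38.p14 by an overlap of 1 bp on either strand. Between 0 and 5 peaks of the 7 genes per list also overlapped another gene. Strands of NSD3 and DOT1L, absent from the promoter table, were taken from most of their peaks. No genome sequence or exon annotation was used, so peak sequences and exons are not reported. Peak numbers were compared by exact permutation with Benjamini-Hochberg adjustment over 19156 genes, in Python 3.11.15 with numpy 2.4.6, pandas 2.3.3 and scipy 1.17.1, after a check on simulated data. Shares of regions have exact binomial 95% intervals. Same-numbered ovarian libraries were not treated as pairs: the correlation of their deviations from the group means over genes was 0.00978 in OVCAR8 and -0.00796 in SKOV3.

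Genes named are the 7, METTL3, METTL14, the 3 genes of each pathway list with most peaks, lineage markers, and per member the gene with the highest correlation of peak number. A gene that this rule names is not reported here. The 7 genes and the lists were chosen with earlier results of these data known. Alternatives tried were peaks on the gene's strand, peaks in no other gene, the stronger 50% of peaks, 15484 peaks per list, a log2 scale, no RKO lists, exchanged ovarian knockdown lists, a single ovarian stratum, a replicate block, other definitions of a region and of loss, and each ovarian library left out in turn.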

Additional observations from a re-analysis of the deposited data

Results flagged for a closer look

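NSD2 moved in opposite directions between lines, though in LOVO by only 1 peak between single lists. In peaks, knockdown minus control, LOVO exceeded RKO by 10 and SKOV3 by 8, OVCAR8 exceeded SKOV3 by 9.5, and RKO minus OVCAR8 was -11.5. DOT1L was higher in knockdown in LOVO, RKO and SKOV3 and lower in OVCAR8, so LOVO minus OVCAR8 was 13.5, RKO minus OVCAR8 11.5 and OVCAR8 minus SKOV3 -15. On the gene's strand alone, RKO knockdown had 6 DOT1L peaks and RKO control had 7. SETD5 was lower in knockdown in LOVO, RKO and OVCAR8 and higher in SKOV3, so LOVO minus SKOV3 was -4, RKO minus SKOV3 -11 and OVCAR8 minus SKOV3 -5. Between the ovarian lines these differences had exact permutation p-values of 0.333 (NSD2), 0.0556 (DOT1L) and 0.0556 (SETD5), where 0.0556 is the smallest that 36 arrangements allow and was reached by 32% of genes with an ovarian peak, NSD3 (7) and ASH1L (-10) among them. The arrangements move lists between OVCAR8 and SKOV3 within each condition, so these p-values do not isolate a difference in the effect of knockdown. Differences that involve LOVO or RKO, with 1 list per group, were not tested. With the ovarian knockdown lists exchanged, DOT1L was lower in knockdown in both ovarian pairs.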

How the results depend on the processing

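The number of genes with an adjusted p under 0.05 was 0 under every one of the 17 alternatives, with between 90 genes (15484 peaks per list) and 4668 genes (log2 scale) at an unadjusted p under 0.05. With so few arrangements adjustment could hardly be passed under any of them, so the count of 0 is no measure of stability. Over the 7 genes and these alternatives, 111 of 119 differences kept their sign and 1 was 0 (SETD5 without the RKO lists), and the lowest adjusted p was 0.532 and the lowest unadjusted exact permutation p 0.0278 (NSD3, ovarian knockdown lists exchanged). The other 7 turned positive: DOT1L at 0.25 with peaks in no other gene, 0.50 with the stronger 50% of peaks and 1.38 with 15484 peaks per list, and on the log2 scale SETD2 at 0.18, NSD1 at 0.01, NSD2 at 0.08 and DOT1L at 0.22. On the log2 scale, division by the list totals adds the same positive amount to every gene, which moves signs upward. The cause of the DOT1L turns in the other settings was not tested. Under the replicate block the count stayed at 0, with 105 genes at an unadjusted p under 0.05, against 302 without it, and the numbers do not pair the libraries. Exchanging the ovarian knockdown lists leaves the mean over lines as it is by construction.

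The share of control regions of the 7 genes lost in LOVO was 38.1% with the stronger 50% of peaks. In OVCAR8 it was 19.2% with 15484 peaks per list and 9.09% with the lists exchanged, and in SKOV3 it was 41.8% with the lists exchanged. The other 30 of 34 values moved by less than their counting interval. Leaving out 1 library at a time gave 34.1% to 41.2% in OVCAR8 and 27.3% to 36.5% in SKOV3. Without the RKO lists the shares of the other lines are the same by construction. With 1 list per colorectal group and 2 per ovarian group, no line could pass a test alone. Reads behind the peaks are not known, so a lost region is one that no longer passed the authors' threshold, at whatever depth the list had.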
